A study of Mus musculus with 3 samples.

Results

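The mouse array used here carried 16181 probes, of 55681 non-control probes, that were named not for a gene but for a stretch of the genome and a strand. They were picked out by that form of name, a chromosome with a start, an end and F or R for the forward or reverse strand, and no measured value entered the choice. The probes were single-stranded DNA of 60 bases, printed once each, and they covered 4607 regions with strand, or 3540 regions when the strand was disregarded. Each region carried a median of 3 probes and at most 10, and 690 regions carried 1. The median region was 7315.5 bases long. A position on the mouse build mm9 was given for 16063 of the probes, and all 16063 lay inside the region and on the strand of their name. Many regions repeated each other: 2104 overlapped another region on the same strand, and merging overlaps left 3362 loci on 1 strand.

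RNA came from spleens of C57BL/6J mice that had received 25 syngeneic islets in the spleen and 100 islets beneath the kidney capsule. Per the study's methods, recipients had been made diabetic with streptozotocin, a toxin of beta cells. Spleens were taken right after transplantation (day 0), on day 2, or on day 139, and the day 139 mice had lost the kidney with the capsular graft on day 100. The sample characteristics name the capsular graft for day 139 alone, while the design text gives it to all. Each day was 1 array, the number of mice behind an array was not given in the sources used here, and no untransplanted spleen was measured. There were thus no replicates, differences are descriptions of 3 arrays, and no p-value was computed. All 8 genes of a T cell marker list, 8 of 8 B cell, 8 of 8 neutrophil and 7 of 7 erythroid marker genes on the array were detected.

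Long intergenic noncoding RNAs (lincRNAs) are transcripts that lie between protein coding genes, are often spliced and polyadenylated, and have no long reading frame. As a class they are less abundant and more restricted to particular cell types than messenger RNAs. Some act in the nucleus on chromatin or on neighbouring genes, and some are mainly the precursors of small RNAs. In lymphoid tissue well known examples are Dleu2, which hosts miR-15a and miR-16-1, Mir17hg, which hosts the miR-17-92 cluster, and Pvt1, which lies beside Myc. A region on this array is a design unit, and a signal on 1 of its probes says that RNA matching 60 bases was bound, not that a transcript spans the region.

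Most regions had no gene name, so the probe sequences show which bases were measured, but not what kind of RNA carried them. A mature miRNA lay whole inside 10 of the probes when 1679 mature names of the RefSeq mouse set were searched on both strands, 6 on the strand of the probe and 4 on the opposite strand. Of these 10, 2 were detected, and these are shown with the matching bases in capitals (the seed, bases 2 to 8, is in capitals in the miRNA itself).
miR-410-3p: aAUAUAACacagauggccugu
Probe in chr12:110973190-110987668, forward strand: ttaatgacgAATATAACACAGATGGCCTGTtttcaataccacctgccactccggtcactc
let-7c-5p: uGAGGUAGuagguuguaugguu
Probe in chr15:85412264-85549139, forward strand: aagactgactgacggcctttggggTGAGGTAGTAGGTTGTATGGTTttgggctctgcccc

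The miR-410-3p probe, whose miRNA belongs to the imprinted cluster downstream of Meg3, read 105 on day 0, 127 on day 2 and 197 on day 139 and was not called in any comparison. The let-7c-5p probe read 31.7, 7.60 and 20.2, was well above background on day 0 alone and was called lower on day 2 than on day 0. A 60-base probe of this kind measures a longer primary transcript, and the mature miRNA itself is too short to be labelled in the same way. All signals are background-subtracted intensities after quantile normalization, in arbitrary units, and levels of different probes are not comparable as amounts. The normalized values deposited for the 3 samples differed from these by at most 0.270% for any region probe.

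A second set of sequences gives the closest thing to a repeat measurement that these arrays hold. The exact sequence of 76 region probes was printed a second time elsewhere on the array under the name of a gene or transcript. These names included Timm17b, Ccl25, Crabp2 and E2f6 as well as the long noncoding RNA genes given below. Of the 4607 regions with strand, 531 held a probe of a named gene on the same strand, and for 216 of these a protein coding gene. The pair for 5730419F03Rik, a lncRNA gene inside chr1:78591605-78606083 on the reverse strand, is shown because it carried one of the largest changes, and its capitals mark AATAAA, a polyadenylation signal.
5730419F03Rik: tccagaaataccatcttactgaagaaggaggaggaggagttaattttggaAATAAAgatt

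Its copy named for the region read 402, 324 and 38.0 on days 0, 2 and 139, and its copy named for the gene read 420, 300 and 42.4. Of the 76 pairs, 38 were detected under both names and 5 under 1 of them. The pair members detected under both names differed by a median of 0.11 on the log2 scale in signal. Their log2 ratios between days differed by a median of 0.15, and by at most 1.53, 1.00 and 1.05 for day 2 over day 0, day 139 over day 0 and day 139 over day 2. The Mir17hg probe read 984, 869 and 826 under its region and 951, 864 and 833 under its gene. The Dleu2 probe read 183, 167 and 139 under its region and 177, 172 and 160 under its gene. For Pvt1 the region copy read 219, 231 and 207 and the gene copy 250, 238 and 206. This spread covers spot and scan error but nothing that differs between mice or extractions.

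Detection of the lincRNA region probes was sparse. On day 0, 5777 of 16181 region probes (35.7%) were well above background, where 54.4% of all probes on the array were. On day 2 the count was 5559 (34.4%), against 53.8% of all probes. On day 139 it was 4658 (28.8%), against 50.4% of all probes. The other probes, those named for genes or transcripts, stood at 62.1%, 61.8% and 59.3%, so the fall towards day 139 was larger among region probes. Of 308 negative control spots, 1 was well above background on day 0 and 0 on the other arrays. The 7 spike-in RNAs, added in equal amount to each sample, read a median of 65.9% of their day 0 level on day 139 and 103.9% on day 2, and the lowest signal that counted as well above background was 12.9, 14 and 19.3 on the 3 days. These lowest signals are on the normalized scale, where fewer probes above background also tend to raise the lowest of them. They are thus no measure of a detection limit apart from the count. Whether detection was less sensitive on day 139 was not tested.

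Detection on at least 1 array was reached by 6380 region probes (39.4%), and on all 3 by 4330 (26.8%), against 65.1% and 57.1% of other probes. Among the detected region probes, 567 were well above background on day 0 alone, 387 on day 2 alone and 142 on day 139 alone. A further 768 were well above background on days 0 and 2 but not on day 139. In that order these were 8.89%, 6.07%, 2.23% and 12.04% of the detected region probes. Of the detected other probes, 2.69%, 2.17%, 1.54% and 4.08% had the same patterns. At the level of regions, 3050 of 4607 (66.2%) had at least 1 detected probe, 1621 had at least 2, and 935 had every probe detected. The region probes well above background had a median signal of 53.7, 57.2 and 71.5 on the 3 days, and the other such probes 321, 324 and 364. A signal of 1000 or more was reached by 382, 384 and 385 region probes. No region probe was saturated.

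Base composition and position went with detection. Among region probes with at most 35% G and C, 32.2% were detected, and the share was 35.1% from 35 to 45%, 51.6% from 45 to 55% and 72.2% above 55%. The other probes rose less over the same classes, from 62.2% to 78.6%. AATAAA or ATTAAA on the probe strand, the hexamers that precede most cleavage and polyadenylation sites, occurred in 6.27% of region probes and 16.7% of other probes. Region probes with such a hexamer were detected in 40.8% of cases and those without in 39.3%. On the opposite strand the hexamers occurred in 5.13% of region probes. In regions that also held a probe of a named protein coding gene on the same strand, 59.1% of 734 region probes were detected, against 37.8% of 14238 in regions that held no named gene probe on their strand. The nearest named gene probe was within 10 kb for 2034 regions (44.2%), and a median of 13936 bases away. In RefSeq promoter windows of GRCm38.p6 (250 bases before to 50 after a gene start), 170 region probes matched whole, and 74 of them (43.5%) were detected. Of those windows' probes, 33 of 84 on the strand of the gene and 45 of 90 on the opposite strand were detected.

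The 8 brightest region probes stayed within 2-fold over the 3 days. The brightest of all, in chr11:22681800-22707775 on the reverse strand, read 115417 on day 0, 110528 on day 2 and 119068 on day 139. It was the only probe of its region. In chr17:17481706-17482457 on the reverse strand all 3 probes were bright, with their highest values on day 2: 28738, 36888 and 28950 for the dimmest, 54791, 73983 and 55541 for the next, and 91324, 111757 and 94213 for the brightest. A bright probe could also stand alone. In chr14:78924115-78938125 on the forward strand 1 probe read 103227, 108477 and 103443 while the other 6 stayed below 50 on every array, among them the adjacent probe at 44.5, 47.5 and 37.0. In chr6:83368261-83407280, which holds the gene B230319C09Rik, a forward-strand probe read 97244, 95850 and 105212, and the adjacent probe read 71.6, 45.4 and 49.2. The probe in chr12:73838608-73862621 on the reverse strand, described with its forward strand in the account of the strands, was another of the 8. The other 3 were in chr6:116092274-116144199 (forward, 85764, 115698 and 85050), chr7:108209996-108216032 (reverse, 74423, 98532 and 95850, with no mapped position) and chr17:39982023-39983277 (forward, 73446, 83857 and 80795). The region chr17:39982023-39983277 lies inside chr17:39960567-39992817, and the kind of RNA bound there was not tested. None of the 8 was called in any comparison. The probe in chr11:22681800-22707775 held 35% G and C. Those in chr7:108209996-108216032 and chr17:17481706-17482457 held 50%, and the others 75% to 88.3%. Of the detected region probes, 8.57% were over 55% G and C. The part of base composition in these signals was not tested.

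Both strands were probed in 1067 of the 3540 regions, and both were detected in 604 (56.6%) of these. The forward strand alone was detected in 172, the reverse strand alone in 192, and neither in 99. In 13 regions each strand had a probe with a mean signal of 1000 or more. The strands were read by probes of different sequence, so no ratio between them is given. At chr12:73838608-73862621 the forward probe read 71835, 88691 and 74423 and the reverse probe, which does not overlap it, read 86373, 97879 and 89536. At chr17:39960567-39992817 the brightest probes read 30817, 47228 and 36443 on the forward strand and 5720, 6618 and 5212 on the reverse. At chr14:115423660-115463160, the region of Mir17hg, the forward probe read 2626, 3871 and 2306 and the reverse probe, antisense to the host gene, 1124, 3658 and 1274. The forward and reverse probes held 78.3% and 80% G and C at Mir17hg. They held 80% and 78.3% at chr12:73838608-73862621, and 68.3% and 60% at chr17:39960567-39992817. The reverse-strand probe at Mir17hg was called higher on day 2 than on day 0, by 3.25-fold, and none of the other 5 detected reverse-strand probes was called. Their log2 ratios of day 2 over day 0 were 1.70, 0.71, -0.61, -0.53 and -1.40. The first of these was well above background on day 2 alone, at 19.1.

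Changes between days were called with the cutoffs of the study, while its Z-score formula was not given in the sources used here. A probe counted as higher when its Z-score reached 2 and its ratio 1.5, and as lower when the Z-score was -2 or less with a ratio of 0.66 or less. The Z-score computed here is the log2 ratio divided by the SD among 1000 probes of similar signal, so it ranks a probe within these arrays and says nothing of replicate spread. From day 0 to day 2, 98 of 6380 detected region probes were called higher (1.91% of all detected probes were) and 135 lower (2.55% of all). For day 139 over day 0, 96 were called higher (2.52% of all) and 127 lower (2.21% of all). For day 139 over day 2, 106 were called higher (2.39% of all) and 99 lower (1.77% of all). As shares of the detected region probes these are 1.54%, 2.12%, 1.5%, 1.99%, 1.66% and 1.55%, each below the share over all detected probes. That order rests on the Z-score: with 1 SD over all detected probes the region share was the higher in 5 of the 6, for example 4.56% against 3.05% of all for lower on day 2 over day 0 and 4.67% against 2.93% for lower on day 139 over day 0. Ratios beyond 2-fold were also more common among region probes than other detected probes, at 12.2% against 8.31%, 16.2% against 12.2% and 16.0% against 11.1% in the 3 comparisons. Of the region probes called higher, 76 of 98, 66 of 96 and 62 of 106 were well above background on both arrays compared. Of those called lower it was 74 of 135, 79 of 127 and 52 of 99. Among other probes called higher it was 418 of 515, 556 of 712 and 530 of 661. Among other probes called lower it was 555 of 684, 447 of 582 and 352 of 470. The median log2 ratios of the region probes were 0.02, -0.09 and -0.09, against 0.01, -0.02 and -0.04 over all detected probes. Among probes well above background on both arrays compared, they were 0.04, 0.01 and -0.04 for region probes and 0.01, 0 and -0.01 for other probes. With signals floored at the lowest one well above background, the region medians were 0.03, 0.04 and 0.02. The lower region medians on day 139 thus depend on how dim signals are treated. Scaling by the spike-in RNAs instead gave 181 higher and 70 lower for day 139 over day 0 and 224 and 51 for day 139 over day 2. In all, 437 region probes in 347 merged loci were called at least once.

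The largest single-probe changes mostly stood alone. The most lowered probe on day 2 lay in chr4:33375464-33377138 on the reverse strand, 42.5 kb from Pnrc1, and is shown as it had the largest fall to day 2, and the largest rise from it, among called region probes well above background on both arrays.
Probe in chr4:33375464-33377138: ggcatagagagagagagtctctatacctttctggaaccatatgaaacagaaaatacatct

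It read 1967 on day 0, 23.7 on day 2 and 1089 on day 139, which is 82.9-fold lower on day 2 than on day 0 and 45.9-fold higher on day 139 than on day 2. The probe directly beside it read 31.8, 43.1 and 35.4 and did not follow. In chr5:106121842-106127192 on the reverse strand a probe read 445, 38.2 and 503, and none of its 4 companions was detected. Among called region probes well above background on both arrays, the highest ratio of day 139 over day 0 was in chr7:140012053-140012509 on the reverse strand, 6.73 kb from Mettl10, at 118, 123 and 1793, a 15.2-fold rise. The other detected probe of that region read 9.47, 19.1 and 9.46. A probe of chr1:171402829-171403289 on the reverse strand, 25.0 kb from Nuf2, read 24.1, 23.3 and 325, and its 2 companions were not detected. A forward-strand probe 6.96 kb from 1700029H14Rik, in chr8:13507348-13543773, read 372, 417 and 4858, and a reverse-strand probe in chr11:96111499-96126224 read 150, 190 and 1727 while its detected companion, called lower, fell from 351 to 98.6. The last of the 5 highest, in chr4:59264275-59287850 on the reverse strand 28.9 kb from Ugcg, read 17.9, 22.9 and 247, and its detected companion 20.3, 21.7 and 29.7. In chr17:15357376-15385701 on the forward strand, a probe that was not well above background on day 0 read 25.9 on day 2 and 414 on day 139, a 16.0-fold rise between these. Its 2 detected companions read 126, 100.6 and 76.0 and 21.0, 3.40 and 3.65.

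With the same limit to probes well above background on both arrays, the lowest ratios of day 139 over day 0 were spread over 4 chromosomes in all. The 5730419F03Rik probe was among them, at 10.6-fold. A forward-strand probe of chr3:36280098-36347798 0.267 kb from Anxa5, a gene of a phosphatidylserine-binding protein, read 423, 167 and 45.6, 9.29-fold lower on day 139 than on day 0. A forward-strand probe of chr1:183951156-183986156 72.7 kb from Srp9, a subunit of the signal recognition particle, read 2778, 1389 and 301, 9.24-fold lower. The only other detected probe of that region went the other way, from 3.70 and 4.42, not well above background, to 38.3 on day 139. A reverse-strand probe of chr17:56687541-56694631 7.25 kb from Safb2 read 542, 93.5 and 84.1, 6.44-fold lower, and a forward-strand probe of chr15:74474704-74474770 24.8 kb from Arc read 166, 23.8 and 26.2, 6.34-fold lower. Both of these were already low on day 2. The 3 detected companions of the Safb2-side probe read 794, 867 and 1104, 437, 559 and 612, and 12.5, 43.6 and 13.0, and none of them fell with it.

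Over the 5 highest and 5 lowest called ratios of each comparison, among probes well above background on both arrays, companions are counted as follows. For the 5 highest on day 139 over day 0, 2 had no other detected probe in their region and 0 of the other 3 had one called higher. For the 5 lowest, 3 had no other detected probe and 0 of 2 had one called lower. For day 139 over day 2, 0 of 3 with companions among the highest and 2 of 4 among the lowest had another probe called the same way. For day 2 over day 0 it was 2 of 5 among the highest and 2 of 3 among the lowest. Of the 24 such changes whose nearest named gene was detected, 2 had that gene called the same way, both at 5730419F03Rik, whose gene probe has the identical sequence.

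Taking all called probes, companions leaned the same way more often than not but by less. From day 0 to day 2, 175 called probes had another detected probe in their region, and the median of the companions had the same sign for 119 (68.0%). For day 139 over day 0 it was 121 of 169 (71.6%) and for day 139 over day 2 it was 96 of 151 (63.6%). The called probes had a median absolute log2 ratio of 1.76, 2.08 and 2.06, and their companions a median of 0.33, 0.56 and 0.31 in the same direction. A companion was itself called the same way for 41, 57 and 41 of them. Probes of a region share the array and the RNA, so companions are no replicates of a day.

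Some probes were well above background on 1 day alone, and the change is then a bound, against the lowest signal counted as well above background on the other array. A probe of chr3:34643323-34682773 on the forward strand read 355 on day 139 but 3.67 and 3.79 before, at least 25.3-fold higher than either. Its 2 companions read 61.3 and 40.1 on day 0, 106.9 and 49.9 on day 2, and 77.9 and 49.5 on day 139. A reverse-strand probe of chr7:134620707-134626739, 0.466 kb from Prr14, read 310 on day 139 and was at least 22.1-fold higher there than on either other day. Its detected companions had log2 ratios of day 139 over day 0 of 1.16, -0.21 and 0.38, and none was called. A forward-strand probe of chr13:67802775-67829550 read 182 on day 0, 3.65 on day 2 and 5.31 on day 139, at least 9.45-fold higher on day 0. On day 2 alone, the largest bound was 5.04-fold, for a reverse-strand probe of chr14:64735748-64736349 that read 97.1 on day 2. The remaining probes named for day 0 alone lay in chr13:15947521-15999246 on the forward strand (73.8, at least 3.83-fold higher) and chr15:73227424-73257474 on the reverse strand (68.5, at least 3.56-fold higher). For day 2 alone they lay in chr7:80766878-80767496 (89.6, at least 4.65-fold) and chr8:123589645-123606932 (85.7, at least 4.45-fold), both reverse, and for day 139 alone in chr3:96289850-96301078 on the forward strand (247, at least 17.6-fold). No companion of a probe named for day 2 alone was detected. In chr3:96289850-96301078 the detected companions had log2 ratios of day 139 over day 0 of -0.39 and -0.25. Detected companions of the probes named for day 0 alone were lower on both later days, but none was called.

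Regions in which several probes of 1 strand were called the same way are fewer. There were 8 such regions raised and 10 lowered for day 2 over day 0, 5 raised and 19 lowered for day 139 over day 0, and 5 raised and 11 lowered for day 139 over day 2. In 7, 2 and 1 regions, in the same order of comparisons, probes of the strand were called in opposite directions. Among called probes, pairs that overlap on the genome or match at 45 or more of 60 bases are not distinct. Leaving those out, 7 of 8, 9 of 10, 5 of 5, 18 of 19, 5 of 5 and 10 of 11 regions still held a distinct pair, in 6, 7, 4, 17, 5 and 9 merged loci.

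Among the most lowered of these on day 2 were 3 forward-strand regions of chromosome 5, of which 2 lay near Speer4 genes, a family with many copies that is known from testis. All 4 probes of chr5:15146475-15170100, 16.9 kb from Speer4d, and both probes of chr5:14943275-14944205, 9.46 kb from Speer4e, were called lower on day 2 and higher again on day 139. Paired probes of these regions are shown as they are nearly the same sequence, and capitals mark the bases that differ.
Speer4e side, start 14943980: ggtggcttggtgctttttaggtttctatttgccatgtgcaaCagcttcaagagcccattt
Speer4d side, start 15168385: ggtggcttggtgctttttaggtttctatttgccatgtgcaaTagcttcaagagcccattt
Speer4e side, start 14944100: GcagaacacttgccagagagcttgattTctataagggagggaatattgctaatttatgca
Speer4d side, start 15168505: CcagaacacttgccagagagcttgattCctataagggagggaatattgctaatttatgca

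The first pair matched at 59 of 60 bases and the second at 58, and whether each also binds RNA of the other locus was not tested. The first pair read 440, 43.4 and 135 on the Speer4e side and 372, 28.4 and 149 on the Speer4d side, 10.1-fold and 13.1-fold lower on day 2 than on day 0. The second pair read 372, 12.6 and 114 and 333, 11 and 105, and neither was well above background on day 2. The remaining probes of the Speer4d region read 400, 12.5 and 127 and 50.3, 6.65 and 29.9. In the remaining region, chr5:15033568-15033987, 1.85 kb from Gm17019, 2 of 3 probes were called lower on day 2, at 104, 3.78 and 42.0 and at 40.4, 3.62 and 9.94, and the other read 35.5, 27.4 and 34.7. The Speer4d gene probe itself read 104, 75.6 and 76.7 and was not called. Every one of the 6 probes of the Speer4d and Speer4e regions thus had its lowest signal on day 2 and an intermediate one on day 139.

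A reverse-strand region on chromosome 1, chr1:175654606-175672031, holds the protein coding gene AI607873, and 4 of its 5 probes were called lower on day 2. Its probe values ran from 818 to 3067 on day 0, from 329 to 1497 on day 2 and from 318 to 1828 on day 139, and the log2 ratios of day 2 over day 0 lay between -1.32 and -0.81. The gene probe moved with them, at 2607, 1100 and 1150, and was called lower on day 2 and on day 139. The gene probe lies inside the region on the same strand. In chr6:40699474-40719122 on the forward strand, which holds Mgam, the gene of the digestive enzyme maltase-glucoamylase, both probes were called lower on day 2 and on day 139. They read 92.0, 22.3 and 19.8 and 63.8, 12.4 and 3.18, and on day 139 neither was well above background. In chr19:46419916-46421753 on the forward strand all 3 probes had lower signals on both later days than on day 0, at 140, 21.6 and 7.15, at 60.7, 8.16 and 9.76 and at 24.8, 4.30 and 9.82. In chr3:151746091-151753763 on the reverse strand 2 probes read 119, 25.1 and 18 and 119, 22.7 and 31.8, while another read 78.9, 70.6 and 62.8. The 2 called probes are alike in sequence and so not a distinct pair, and the last probe matches one of them at 57 of 60 bases.

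Near Gm14005, a lncRNA gene on chromosome 2, 4 reverse-strand regions were lower on day 139 than on day 0. In chr2:128211990-128215223 all 3 probes were called, at 1310, 616 and 328, at 218, 83.1 and 39.6, and at 318, 158 and 98.2. Their values on day 2 lay between those of the other days, and 2 of the 3 were called lower there already. In chr2:128217275-128217972, 2 of 3 probes were called lower on day 139, with a median log2 ratio of -1.41 for the region. The regions chr2:127988295-128194920 and chr2:128137419-128141735 each had 2 probes called lower on day 139, with region medians of -1.60 and -1.23. The probe for Gm14005 itself was dim, at 35.4, 21.3 and 20.6, and was not called.

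In chr16:23992037-24001037 on the forward strand, 26.8 kb from Bcl6, the repressor that germinal center B cells need, 3 of 6 detected probes were called lower on day 139 than on day 0. The brightest read 1452, 1094 and 863 and was not called, and the 3 called probes read 62.9, 22.7 and 13.7, 68.4, 29.5 and 11.2, and 85.4, 44.2 and 25.1. The other 2 detected probes read 43.9, 20.3 and 17.1 and 110, 42.8 and 50.5. The Bcl6 gene probe, on the opposite strand, read 2419, 1834 and 3910 and was not called. In chr2:174088550-174109425 on the reverse strand, which holds Nespas, the imprinted antisense transcript of the Gnas locus, 4 detected probes read 36.0 to 53.7 on day 0 and 40.8 to 60.5 on day 2. On day 139 all 4 read 6.25 to 19.8 and none was well above background.

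In chr4:11102287-11118421 on the reverse strand, 1.05 kb from Trp53inp1, a gene that p53 induces, 2 of 4 detected probes were called lower on day 139 than on day 0 and on day 2. They read 82.9, 89.4 and 22.1 and 51.8, 69.9 and 10.2. The Trp53inp1 gene probe, on the opposite strand, moved the other way, from 1736 and 1837 to 4654, and was called higher on day 139.

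In the 3 probes of chr10:96098058-96098623 on the forward strand, 12.6 kb from Btg1, an antiproliferative gene, the day 2 signal was highest in each. They read 630, 1670 and 236, 295, 700 and 82.7, and 108, 188 and 97.6. The first 2 of these probes were called higher on day 2 and lower on day 139, and the last in no comparison. The Btg1 probe read 26860, 22887 and 31616 and was not called.

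Higher on day 139 than on both other days were 2 regions of chromosome 1 and 1 of chromosome 10. In chr1:85117750-85129200 on the forward strand, 32.5 kb from A530032D15Rik, 3 probes read 45.2, 62.5 and 199, 212, 233 and 869, and 204, 234 and 897, with log2 ratios of day 139 over day 0 between 2.04 and 2.14. The last detected probe read 9.80, 3.87 and 24.1 and was not called. In chr1:85304494-85305390 on the reverse strand, 50.5 kb from C130026I21Rik, all 3 probes were called and read 213, 187 and 550, 120, 112 and 388, and 129, 139 and 411. The gene probes moved the same way, A530032D15Rik at 264, 287 and 855, called higher, and C130026I21Rik at 1682, 1536 and 3283, not called. In chr11:112905201-113062945 on the reverse strand, which holds the lncRNA gene 2610035D17Rik, all 3 probes were called higher on day 139 than on day 0, at 54.1, 94.9 and 194, at 109, 163 and 333, and at 30.2, 51.1 and 136. In the overlapping region chr11:112898724-113062945 on the same strand, 2 of 6 detected probes were called higher, with log2 ratios of all 6 from 0.05 to 2.97. The 2610035D17Rik gene probe read 134, 160 and 296 and was not called.

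The chromosome 10 region, chr10:83181374-83249918, holds 1500009L16Rik on the opposite strand, and its 3 detected reverse-strand probes rose together on day 139. They read 121, 130 and 689, 160, 177 and 954, and 307, 355 and 1720, with log2 ratios over day 0 between 2.49 and 2.58. Of these, 2 are shown with their differing bases in capitals, since they match at 57 of 60 bases and come from a tandem repeat.
Start 83249269: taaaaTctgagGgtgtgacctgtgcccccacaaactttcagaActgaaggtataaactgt
Start 83249343: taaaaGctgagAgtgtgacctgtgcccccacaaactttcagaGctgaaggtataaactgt

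On the forward strand of the same locus, chr10:83181374-83249774, all 4 detected probes were lower on day 139 than on day 2. They ran from 35.6 to 151 on day 2 and from 17.5 to 39.3 on day 139, and 3 of them were called lower.

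Probes rich in G and C were more frequent among those raised on day 2 than among all detected region probes. Of the 98 called higher from day 0 to day 2, 35 (35.7%) had over 55% G and C, against 8.57% of all 6380 detected region probes. Among the 135 called lower it was 5.93%, and among those called on day 139 over day 0 it was 12.5% of the higher and 7.09% of the lower. Seen from the other side, 6.40% of the 547 detected region probes over 55% G and C were called higher on day 2, against 0.715% of those at or below 35%. Other probes showed the same direction with fewer members: 10 of 213 (4.69%) over 55% G and C were called higher on day 2, against 1.33% at or below 35%. The median log2 ratio of day 2 over day 0 was 0.20 for region probes over 55% G and C and -0.14 for those at or below 35%, and 0.21 and -0.05 for other probes. For day 139 over day 2, which shares the day 2 array, 24.2% of the lower calls were over 55% G and C. Without the day 2 array, other probes over 55% G and C were called lower on day 139 over day 0 in 12 of 213 cases (5.63%), against 1.85% at or below 35%, while region probes were at 1.65% and 1.79%. Among region probes base composition thus went with calls chiefly in the comparisons that use the day 2 array. Among other probes it also went with lower calls on day 139 over day 0. Its part in the calls was not tested.

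Among called region probes well above background on both arrays, the 5 highest ratios of day 2 over day 0 were all on probes over 55% G and C. They are shown with CG dinucleotides in capitals, which occur at least once in 48.2% of region probes, at a median of 0 a probe and of 3 among those over 55% G and C. CG reads the same on both strands.
Near Ifne, start 88584342: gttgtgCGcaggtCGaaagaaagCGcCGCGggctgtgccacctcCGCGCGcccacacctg
Near Nup210, start 90938089: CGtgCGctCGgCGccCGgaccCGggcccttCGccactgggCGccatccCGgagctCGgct
Near Ccdc120, start 7327722: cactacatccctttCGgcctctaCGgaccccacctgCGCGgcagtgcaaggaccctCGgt
Near Rnf4, start 34713023: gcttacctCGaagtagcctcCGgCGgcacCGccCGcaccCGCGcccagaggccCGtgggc
Near Fignl2, start 100908406: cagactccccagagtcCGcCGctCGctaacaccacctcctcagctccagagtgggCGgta

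The probe near Ifne, in chr4:88542373-88589148 on the forward strand and 16.7 kb from that interferon gene, read 50.3 on day 0, 1675 on day 2 and 52.0 on day 139, a 33.3-fold rise and a 32.2-fold fall. The probe that ends at the base before it read 552, 1728 and 692 and was called higher on day 2 too, and the other 3 probes of the region were not detected. The Nup210-side probe, in chr6:90915489-90940052 on the reverse strand, read 204, 1963 and 215, a 9.64-fold rise, while another probe of the region, called lower, read 36572, 13824 and 15646. The Ccdc120-side probe, in chrX:7327721-7328024 on the reverse strand, read 28.6, 263 and 49.5, a 9.19-fold rise, and its detected companion read 145, 197 and 216 and was not called. The Rnf4-side probe, in chr5:34696192-34722842 on the reverse strand, read 2661, 22489 and 2773, an 8.45-fold rise, and neither of its 2 detected companions was called. A forward-strand probe at start 34713032, which covers nearly the same bases on the other strand, read 5216, 5855 and 3974 and was not called. The Fignl2-side probe, in chr15:100908323-100908645 on the forward strand, read 99.6, 811 and 142, an 8.15-fold rise, and 1 of its 2 companions rose with it, from 348 to 1558.

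A pair of probes in chr10:126818382-126856582 on the forward strand, 24.5 kb from Inhbc, differed at 1 base but not by the same ratio on day 2. They lie in a tandem repeat, and the capital marks the base that differs.
Start 126829469: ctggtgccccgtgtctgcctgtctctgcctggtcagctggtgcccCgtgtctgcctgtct
Start 126829649: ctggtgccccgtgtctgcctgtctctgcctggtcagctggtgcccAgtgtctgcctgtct

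The first read 2846, 12128 and 2930, and the second 2370, 3364 and 2347. The log2 ratio of day 2 over day 0 was thus 2.09 for the first and 0.51 for the second, and on day 139 both were back within 0.04 of day 0. Another repeat probe that overlaps the first read 2371, 6308 and 2308 and was also called higher on day 2, and the other 3 detected probes of the region were not called.

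A named gene within 10 kb with a detected probe was available for 2932 detected region probes, over 621 genes. Of the region probes called higher on day 2 over day 0, 5 of 36 had the near gene called higher, and of those called lower, 10 of 58 had it called lower. For day 139 over day 0 it was 0 of 45 and 5 of 41, and for day 139 over day 2 it was 0 of 41 and 1 of 30. Over all 2932, the near gene was called in the given direction for 0.716%, 2.35%, 1.13%, 1.06%, 0.477% and 0.375%. The near genes called the same way on day 2 were 2310015B20Rik and 4930593A02Rik for higher and AI607873 and Trim30c for lower, and on day 139 they were 5730419F03Rik and AI607873. Of these, 4930593A02Rik, Trim30c and 5730419F03Rik share the exact probe sequence with a region probe, and 2310015B20Rik and AI607873 lie inside a called region on the same strand. The counts thus hold repeat measurements and are no evidence of change shared between neighbours.

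Well known long noncoding RNA genes had probes of their own. Of a list of 83 such genes, 39 were on the array and 31 were detected, with 0 called higher in any comparison. From day 0 to day 2, 2 of the 31 were called lower (2.55% of all detected probes were): Snhg12, a snoRNA host gene, at 1311, 665 and 1464, and A130040M12Rik at 49045, 13811 and 15390. On day 139 against day 0, 1 was called lower (2.21% of all), A130040M12Rik. The list's median log2 ratio was -0.11 for day 2 over day 0 and -0.18 for day 139 over day 0, against 0.01 and -0.02 over all detected probes. Neat1, the scaffold of nuclear paraspeckles, read 8497, 6561 and 8063, and Gas5, a snoRNA host gene that accumulates in arrested lymphocytes, 8113, 6725 and 6429. Malat1, an abundant nuclear RNA, read 1521, 1803 and 1403 on its probe. Meg3, the imprinted RNA upstream of miR-410, read 240, 420 and 226, Peg13 2849, 2643 and 3585, and Dleu2 189, 203 and 192.

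Cell type markers moved between the arrays as well. Of the islet list, 7 of 9 endocrine genes were called higher on day 2 than on day 0, with a list median log2 ratio of 2.04 against 0.01 over all detected probes. Ins1 and Ins2, the genes of insulin, were not called, with ratios of 1.36 and 1.37. On day 139 the same list had 8 of 9 genes called lower than on day 2, with a median of -2.87, and 1 of 9 lower than on day 0, with a median of -0.97. On day 139 against day 0, 4 of 8 B cell genes and 3 of 5 plasma cell genes were called higher, with medians of 1.1 and 1.25 against -0.02. Of 8 exocrine pancreas genes, 3 were called higher on day 139 than on day 0, and 4 of the 8 were not well above background on day 0. The erythroid list had a median of -0.66 with 1 of 7 called lower, and 3 of 8 neutrophil genes, S100a8, S100a9 and Retnlg, were called lower on both later days while the list's median was -0.27 on day 2 and 0.07 on day 139. Over all detected probes, 1.91% were called higher and 2.55% lower for day 2 over day 0. The shares were 2.52% and 2.21% for day 139 over day 0, and 2.39% and 1.77% for day 139 over day 2. All marker genes of the B cell, T cell, islet and exocrine lists were detected on at least 1 array. In a whole organ, fewer cells of a type and less RNA per cell cannot be told apart. The part of these shifts in the region changes was not tested.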

How the data were processed

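The authors deposited the scanner files of 3 one-colour Agilent arrays, with a background-subtracted intensity for each spot on a linear scale and quality flags for signal over background, saturation and outliers (scanner software Feature Extraction 10.7.1.1 per the file headers, 9.5.1.1 per the labels). They also deposited a table of normalized intensity values, quantile normalized per the study's methods and, by comparison with the scanner files, on a linear scale. Its values for region probes differed from those computed here by at most 0.270%, it has a median of 22.0 for region probes on each array, and served as an alternative.

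Control and outlier spots were left out, spots of a probe averaged, and 55679 probes quantile normalized, floored at 1 and taken to log2. A probe was detected if well above background on at least 1 array (32108 probes). Positions are mm9, as the files give them. No genome of that build was used here. Gene names are those of the array, and 22290 of 30189 matched a RefSeq symbol or synonym. RefSeq GRCm38.p6 was used for names, miRNAs and promoter sequences, and its coordinates were not used.

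The members, the lists and the rules for naming were chosen with earlier results of these data known. Named are the 8 brightest region probes, the 5 highest and 5 lowest called ratios of each comparison among probes well above background on both arrays, the 3 largest bounds for each day alone, the 5 regions brightest on both strands, up to 5 regions with several probes called one way, and nearest genes. Other regions with several called probes, the sequence likeness of probes and the base composition of called probes were added after their values were seen. The Z-score formula and the comparison of day 2 with day 0 were chosen here. Alternatives covered background correction (normexp, limma 3.58.1), scaling, detection, the floor and the Z-score. Calculations used Python 3.11.15, numpy 2.4.6 and pandas 2.3.3, and calls were tested on simulated data.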

Additional observations from a re-analysis of the deposited data

How the results depend on the processing

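Of 104 alternative values, 71 stayed within 1.5 times of the reported count or within the difference between repeat probes, and 33 moved further. For medians that difference was 0.15, wider than the medians themselves, so a change of sign still counted as staying. With the floor raised to the lowest detected signal, the region median went from -0.09 to 0.04 for day 139 over day 0. For day 139 over day 2 it went from -0.09 to 0.02. The deposited values were nearly the same numbers, so the 71 is no measure of stability. Scaling to the spike-in RNAs shifted the median of all detected probes to 0.35 for day 139 over day 0 and 0.40 for day 139 over day 2. It gave 181 higher and 70 lower region probes with a region median of 0.26, and 224 and 51 with a median of 0.34, so the balance of higher and lower calls on day 139 depends on the scaling. All 215 calls among mapped probes of the regions named kept their direction under normexp correction, spike-in and 75th percentile scaling, the deposited values and the raised floor. These calls were selected for large ratios, of at least 0.79 in absolute log2, so this outcome was largely set in advance and is no support for them. With a scaled median absolute deviation the higher and lower counts were 214 and 256, 204 and 305, and 200 and 256 for day 2 over day 0, day 139 over day 0 and day 139 over day 2, and with 1 SD over all detected probes they were 174 and 291, 162 and 298, and 192 and 251. The last setting alone among these Z-score choices put the region share above that of all detected probes, in 5 of 6 counts. Of all detected probes, the median absolute deviation called 4.20% and 4.87%, 5.29% and 5.41%, and 4.62% and 4.73%. With 1 SD over all detected probes, these shares were 2.25% and 3.05%, 2.92% and 2.93%, and 2.98% and 2.41%. Without a detection filter the higher and lower counts of region probes were 243 and 323, 237 and 281, and 250 and 223. Of all probes, 1.77% and 2.29%, 2.13% and 1.90%, and 2.06% and 1.54% were then called, each above the region share. Requiring detection on all 3 arrays left 86 lower for day 2 over day 0 and 63 lower for day 139 over day 2. These were 1.99% and 1.45% of such region probes, against 2.48% and 1.69% of all such probes. Raising the floor to the lowest detected signal gave 230 higher for day 139 over day 0 and 223 higher for day 139 over day 2. These were 3.61% and 3.50% of detected region probes, against 4.02% and 3.75% of all detected probes. The scanner's more lenient flag for signal above background gave 10317, 9870 and 9000 region probes on the 3 days and 981 regions with both strands, and counting a strand only when detected on all 3 arrays gave 390. No paired analysis was possible because each day is 1 array. With 1 array a day, differences between mice, extractions and arrays cannot be told apart from the day. The lowest normalized signal well above background was highest on day 139, where the fewest probes were above background.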

Other observations

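The region chr15:85412264-85549139 on the forward strand, which holds the let-7c-5p probe, also held a probe inside the promoter window of Gm34622, on the opposite strand to that gene, that read 1161 on day 0, 1498 on day 2 and 5001 on day 139 and was called higher from day 0 to day 139. It was chosen after its values were seen.

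A probe printed under the name AK145507 has the exact sequence of a forward-strand probe in chr17:39983902-39985688, within the locus where both strands were bright. The region copy read 18959, 26774 and 22100 and the other copy 18896, 27096 and 21443. The kind of RNA they bound was not tested.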
